A study of Mus musculus with 9 samples.

Results

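The 5 Control samples of an RNA sequencing series on epididymal white adipose tissue, the fat pad that lies against the mouse epididymis, were compared among themselves. Their genotype is given only as Control, and the mice had received CL316,243, a beta3-adrenergic receptor agonist, which makes fat cells release fatty acids and produce heat. The series holds 9 samples, and its 4 UBKO samples, from mice that lack Ctnnb1 (beta-catenin) in cells expressing Ucp1 per the series title, were not used. The sources used here give no age or strain of the mice and do not say whether samples came from separate mice. The samples were split by a measured value, the raw count of Gpx5, an epididymal glutathione peroxidase. Control rep1 and rep2 held 203959 and 195945 Gpx5 counts and form the set with epididymal transcripts. Control rep3, rep4 and rep5 held 6, 0 and 0 counts and form the set without. Because the sets were chosen by the transcripts themselves, all differences between them are given as a description, with no test.

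The epididymis is a long coiled duct in which sperm leaving the testis mature. Its principal cells secrete lipocalins, beta-defensins, protease inhibitors and other proteins that coat sperm, its basal cells carry keratins, its clear cells acidify the lumen, and smooth muscle surrounds the duct. The first stretches, the initial segment and the caput, depend on androgen and on factors in the fluid from the testis. White adipose tissue is made of adipocytes that store and release fat, with macrophages, fibroblasts, mesothelium and vessels around them.

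All marker genes but Adam7 had a promoter window in the RefSeq table used here, covering 250 bases before to 50 bases after a gene start (build GRCm38.p6), and these are shown because Gpx5 defines the split and the others mark the same tissue. They are Gpx5 (chr13:21292637-21292936, minus strand), Lcn8 (chr2:25652868-25653167, plus strand) and the downstream of 2 overlapping windows of Rnase10 (chr14:51007679-51007978, plus strand). Each is written 5′ to 3′ on the gene's strand, with capitals for the ETS factor site AGGAAG on either strand.
Gpx5: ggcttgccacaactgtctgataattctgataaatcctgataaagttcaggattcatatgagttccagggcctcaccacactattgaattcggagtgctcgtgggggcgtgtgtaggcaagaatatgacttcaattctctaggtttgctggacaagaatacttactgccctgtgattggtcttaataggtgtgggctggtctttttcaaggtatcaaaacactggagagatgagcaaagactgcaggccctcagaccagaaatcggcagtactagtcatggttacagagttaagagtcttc
Lcn8: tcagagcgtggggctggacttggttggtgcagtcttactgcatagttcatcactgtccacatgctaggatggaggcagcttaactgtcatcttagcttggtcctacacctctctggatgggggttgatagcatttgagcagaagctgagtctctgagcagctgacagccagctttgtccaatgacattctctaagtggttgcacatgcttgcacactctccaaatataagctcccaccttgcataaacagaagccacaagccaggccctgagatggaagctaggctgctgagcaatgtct
Rnase10: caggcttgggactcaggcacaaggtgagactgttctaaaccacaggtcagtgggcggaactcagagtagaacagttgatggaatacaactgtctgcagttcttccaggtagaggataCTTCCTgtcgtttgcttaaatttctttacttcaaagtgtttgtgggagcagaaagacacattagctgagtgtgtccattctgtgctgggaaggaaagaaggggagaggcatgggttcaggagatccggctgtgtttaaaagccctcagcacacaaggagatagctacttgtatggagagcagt
The Gpx5 and Lcn8 windows did not hold these letters, and the Rnase10 window shown held 1 such site. The upstream Rnase10 window, not shown, held 0. AGGAAG was found in 43.4% of the 304 promoter windows of the added genes defined below, in 33.8% of the 15276 windows of all genes that entered and in 35.1% of all 32544 windows. For the 20 added genes with the highest levels, without predicted genes, it was found in 6 of 16 windows (37.5%). Windows were matched for 233 of the 325 added genes, and a match is a description of letters, not of a bound site.

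A gene was described when it had at least 10 counts in at least 2 of the 5 samples, which 17276 of 28481 genes did. A gene with almost no counts in rep3 to rep5 could enter only through rep1 and rep2. For such genes this filter fixed in advance that they stood higher. The ratio of a gene is its counts summed over rep1 and rep2 per their summed totals, over the same for rep3 to rep5, and levels are counts scaled to the sample's summed gene counts, written as CPM. The sets do not overlap for a gene when both samples of one set lie beyond all 3 of the other. Library totals ran from 15308480 to 17362336 counts. Of the genes, 6161 (35.7%) were higher without overlap in the set with epididymal transcripts and 1394 (8.07%) were lower. These shares are the background for the counts of each gene list below. Under TMM scaling these counts were 3955 and 3119. The median log2 ratio of all genes was 0.23 by total counts and 0.02 by TMM, and log2 ratios below are by total counts unless TMM is named.

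Genes at least 32-fold higher without overlap are called added. There were 325 (1.88%), and a further 788 (4.56%) that were 4-fold up to 32-fold higher without overlap are called partly added. The added genes took 5.48% of the counts in rep1 (exact 95% binomial interval 5.47% to 5.49%) and 4.95% in rep2 (4.94% to 4.96%). They took 0.0147%, 0.0148% and 0.0105% in rep3, rep4 and rep5. The partly added genes took 2.22% and 2.09% against 0.253%, 0.247% and 0.252%. These intervals cover counting error only.

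The marker genes were among the added genes with the most counts. Gpx5 (ENSMUSG00000004344, mm10 chr13:21286429-21292731), which removes peroxides around sperm, reached 12134 CPM in rep1 and 11286 CPM in rep2, against 0.360 CPM in rep3 and 0 in rep4 and rep5. Lcn8, a lipocalin that carries small lipophilic molecules, reached 3900 and 2806 CPM and had no count in the other 3 samples. With that sum set to 3 counts its ratio was 53395. Adam7, a membrane protein of the ADAM family passed to sperm, reached 2704 and 2467 CPM against 0.781, 0.565 and 0 CPM. Rnase10, an RNase A family member without the usual catalytic role, reached 2036 and 1855 CPM against 0.360, 0.251 and 0.719 CPM. Together they took 2.08% of the counts in rep1 and 1.84% in rep2. Per transcript length, Gpx5 had a mean of 6995 FPKM in the pair and Adam7 495 FPKM.

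**Figure D1:**
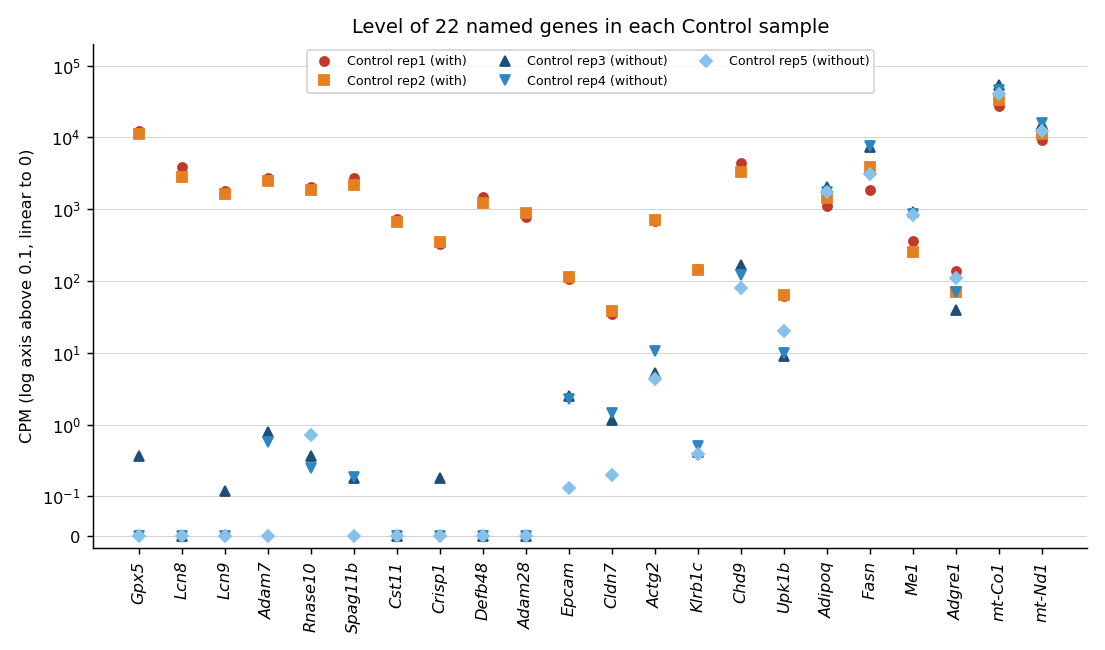
CPM of 22 named genes (x axis) in the 5 Control samples, on a log axis above 0.1 CPM and linear down to 0. Circles and squares are rep1 and rep2, triangles and diamonds rep3 to rep5. The epididymal genes at left lie above 100 CPM in rep1 and rep2 and below 1 CPM in the other samples, and Actg2, Chd9 and Klrb1c also stand apart. Adipoq, Me1 and the mitochondrial genes lie lower in rep1 and rep2. Fasn is lowest in rep1, but in rep2 it lies above rep5.

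All 6 epididymal lipocalins were added. Their summed level in rep3 to rep5 was 0.120, 0 and 0 CPM, so they entered through rep1 and rep2 and their direction was fixed in advance. Lcn9 reached 1800 and 1618 CPM against 2 counts in all in the other set, a ratio of 40889 with a 95% counting interval of 11319 to 337643. Lcn10 reached 660 and 488 CPM, Lcn6 reached 88.5 and 44.6 CPM and Lcn5 reached 12.3 and 10.1 CPM, and none of these 3 had a count in rep3 to rep5. Lcn2, a lipocalin that binds bacterial siderophores and is known outside the epididymis, was also added at 1255 and 1358 CPM, but stood at 20.1, 25.6 and 19.1 CPM in the other set.

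Of 29 beta-defensin genes in the table, 18 entered, 15 were added and 3 partly added. Their summed level in rep3 to rep5 was 0.901, 0.753 and 0.523 CPM. Members could thus hardly enter except through rep1 and rep2, and that all 18 stood higher was largely fixed in advance. Beta-defensins are small cationic antimicrobial peptides, several of which coat sperm. Spag11b reached 2729 and 2145 CPM against 0.180, 0.188 and 0 CPM. Defb48 reached 1493 and 1229 CPM, Defb20 reached 1258 and 996 CPM, and neither had a count in the other 3 samples. Members of these families resemble each other in sequence, and reads shared between copies could be split between genes. How such reads were counted is not stated.

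Of 19 epididymal protease inhibitor genes in the table, 16 entered, 14 were added and 2 partly added. With a summed level of 1.20, 0.816 and 0.523 CPM in rep3 to rep5, this direction too was largely fixed in advance by the filter. Among the cystatins, Cst11 reached 736 and 658 CPM, Cst12 reached 599 and 600 CPM and Cst8 reached 344 and 309 CPM, all with no count in the other set. Eppin, a whey acidic protein and Kunitz domain inhibitor found on sperm, reached 58.2 and 39.7 CPM against 0 in each of rep3 to rep5. In the list of sperm-binding and secreted proteins, 14 of 15 genes were higher without overlap and 12 were added. Adam28 reached 775 and 896 CPM and Crisp1, which takes part in sperm and egg binding, reached 322 and 351 CPM. Npc2, a cholesterol carrier that adipose cells also express, was the exception at 795 and 751 CPM against 677, 660 and 963 CPM. Teddm1a, at 1952 and 1869 CPM, and Teddm2, at 1964 and 1976 CPM, were added, but they overlap each other, so their counts cannot be told apart.

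All 9 genes listed for the initial segment and caput were added, among them Ros1, a receptor tyrosine kinase of the initial segment, at 62.1 and 84.8 CPM with no count in rep3 to rep5. The list holds Gpx5, which defines the split, and the other marker genes. This count was therefore partly fixed in advance and gives no comparison with other regions. Of 4 genes listed for the corpus and cauda, 2 entered and 1, Crisp1, was added. The other, Cd52, stood at 62.2 and 51.7 CPM against 12.37, 12.05 and 28.02 CPM. Of 8 transcription and signalling genes of the epididymis, 7 were higher without overlap. Pax8 reached 67.1 and 51.7 CPM against 1.502, 0.627 and 0 CPM, and Etv4, an ETS factor of the caput, reached 53.8 and 39.8 CPM against 0.841, 1.13 and 1.05 CPM. Srd5a2, which makes dihydrotestosterone, reached 43.4 and 39.2 CPM against 1.502, 1.13 and 0 CPM.

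Of 24 general epithelial genes, 23 entered and all 23 were higher without overlap, 12 of them added. The adhesion gene Epcam reached 106 and 114 CPM against 2.46, 2.26 and 0.131 CPM. All 5 basal cell genes that entered were higher, with Krt5 at 9.76 and 11.3 CPM and no count in the other set. Their summed level in rep3 to rep5 was 2.04, 1.82 and 1.63 CPM, so this count was partly fixed in advance by the filter. Of the epididymal transport genes, 7 of 9 were higher without overlap, among them Cftr, a chloride channel, at 22.3 and 28.3 CPM against 0.781, 1.25 and 1.18 CPM. Car4 was the 1 gene of this list with a ratio below 1, a log2 ratio of -0.39, and its sets overlapped. Foxi1, a transcription factor of proton-secreting cells counted above with the transcription genes, reached 4.82 and 3.51 CPM against 0. Of 10 smooth muscle genes, with a median log2 ratio of 0.13, 1 differed without overlap: Actg2, an actin of visceral smooth muscle, at 688 and 697 CPM against 5.29, 10.5 and 4.25 CPM. Acta2, the vascular smooth muscle actin, stood at 138 and 147 CPM against 145.2, 128.4 and 100.3 CPM.

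Of 13 germ cell genes listed, 12 were in the table and 7 entered, of which 5 were higher without overlap and 1 lower. The summed level of the list overlapped between the sets, at 18.3 and 26.9 CPM against 16.2, 20.6 and 26.1 CPM. Most of this sum in rep3 to rep5 came from 1 gene, Sycp3, so the overlap does not show that the other members were alike. Prm2, which packs DNA in sperm heads, reached 2.02 and 4.09 CPM and Prm1 reached 1.01 and 2.53 CPM, with no count in rep3 to rep5. Both were higher in rep2 than in rep1. Sycp3, a gene of meiotic chromosomes that overlaps Chpt1, was the lower one, at 10.6 and 10.7 CPM against 14.8, 20.01 and 25.8 CPM. Markers of seminal vesicle and prostate were near 0 in all samples, with a summed level of 0.357 to 1.33 CPM.

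The features below describe a list of genes picked by the same contrast. They restate which gene families were added and are no separate support for it. Of 255 added genes with a Gene Ontology term in the authors' deposited table, 34.5% carried extracellular region, against 10.2% of 14122 genes that entered. Defense response to bacterium was carried by 11.4% against 1.36%, and endopeptidase inhibitor activity by 8.24% against 0.913%. Of the added genes, 81.5% were protein coding, against 83.8% of all that entered, and 8.31% were lincRNA genes, against 2.10%. Chromosome 2 held 16.3% of the added genes and 7.84% of all that entered. Groups of at least 3 added genes, each within 1 Mb of the next, numbered 25 and held 111 genes, 34.2% of those added. No such share is given for all genes that entered, so the 34.2% has no background beside it. Some groups lie in gene-dense spans, such as 1 on chromosome 7 where 4 of 67 genes that entered were added (5.97%). On chromosome 2 a group of 8 held Lcn8, Lcn9, Lcn10, Lcn5, Lcn6 and Lcn12, and a group of 9 held Eppin, Wfdc8, Wfdc10 and Spint3. On chromosome 9, 7 of 8 genes that entered within a Pate gene group were added, and on chromosome 14 all 3 of Adam7, Adamdec1 and Adam28.

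At the median the added genes stood near equal CPM in both samples, but many of them differed beyond counting error. The CPM in rep1 over that in rep2 had a median of 1.12 over the 325 genes, with a range of 0.267 to 3.34. The 95% counting interval lay above 1 for 127 genes and below 1 for 43. The median was 1.37 for the lipocalins, 1.17 for the beta-defensins, 1.06 for general epithelial genes and 0.999 for sperm-binding and secreted proteins. Lcn6 was 1.98 times and Defb47 2.33 times as high in rep1, while Gfra1, a co-receptor for glial cell line-derived neurotrophic factor, stood at 27.5 CPM in rep1 and 55.0 CPM in rep2. These ratios compare 2 libraries and have no replicate check.

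**Figure D2:**
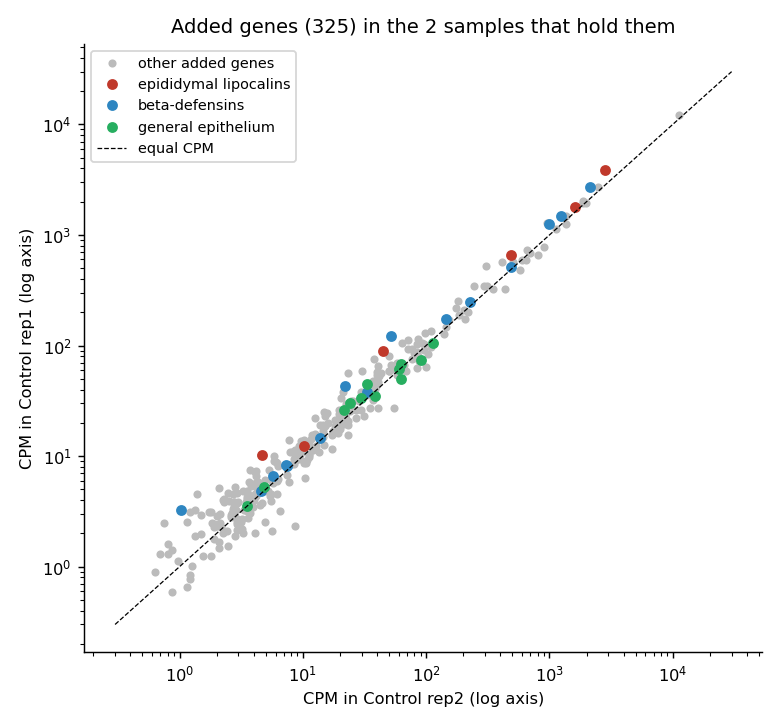
CPM of the 325 added genes in rep2 (x axis) and rep1 (y axis), both on log axes. Each point is a gene, coloured for 3 lists, and the dashed line marks equal CPM. The points follow the line, with the median slightly above it at 1.12.

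Some added genes also had counts in the other set, and where these came from was not tested. No count in any of rep3 to rep5 was found for 125 of the 325. A count was found for 156 in rep3, 139 in rep4 and 109 in rep5. There were 9 genes with at least 1 CPM in rep3 and rep4 but under 0.25 CPM in rep5, and 0 with the reverse. They included Epcam (values above), Cldn2, a tight junction gene, at 2.16, 2.13 and 0 CPM, and Cuzd1, at 7.33, 10.9 and 0.131 CPM. Gpx5 had 6 and 0 counts in rep3 and rep4, and Lcn8 none.

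Genes listed for other cell types, or in no list, also stood apart, and some were chosen after their values were seen. Klrb1c (ENSMUSG00000030325, chromosome 6), which encodes the natural killer receptor NK1.1, reached 147 and 144 CPM against 0.420, 0.502 and 0.392 CPM. Zap70, a kinase of T cell receptor signalling, reached 19.6 and 19.4 CPM against 1.02, 0.376 and 0.261 CPM. They were the 2 of 11 T and natural killer cell genes that differed without overlap. Of 7 B and plasma cell genes 1 did, Derl3, an endoplasmic reticulum protein of secretory cells, at 29.6 and 21.2 CPM against 1.80, 4.77 and 5.81 CPM. Cd3e, the T cell receptor subunit, stood at 1.13 and 0.864 CPM against 0.961, 0.251 and 0.457 CPM, and Ncr1, a natural killer receptor whose counts were under the minimum, at 0.238 and 0.115 CPM against 0.420, 0 and 0.196 CPM. Chd9, a chromatin remodeller, fell just short of the added genes with a ratio of 31.0, at 4413 and 3260 CPM against 167, 121 and 79.0 CPM. Just inside were Cldn3 at 33.8 and Slc7a5 at 34.0. Upk1b, listed for mesothelium, reached 62.6 and 63.8 CPM against 8.95, 9.91 and 20.4 CPM, while Msln, the defining mesothelial gene, stood at 26.9 and 14.5 CPM against 12.9, 17.8 and 34.4 CPM.

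If the added genes did nothing but take counts from all others, every other gene would stand lower by 0.081 in rep1 and 0.073 in rep2 on the log2 scale. The part of this in the values that follow was not tested. All 24 adipocyte genes had a ratio below 1 and 18 were lower without overlap, with a median log2 ratio of -0.46 by total counts and -0.67 by TMM. Their summed level was 43050 and 56240 CPM against 79258, 77727 and 65431 CPM. Adipoq, the adiponectin gene, stood at 1110 and 1431 CPM against 2012, 1723 and 1707 CPM, a log2 ratio of -0.51. Lpl, which releases fatty acids from lipoproteins, had a log2 ratio of -0.68 and Pnpla2, the first lipase of fat breakdown, one of -0.77. Lep, the leptin gene, stood at 542 and 476 CPM against 588, 566 and 526 CPM, and these sets overlapped. In bulk tissue, fewer cells of a type and less RNA per cell cannot be told apart.

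Lipid synthesis genes were split. Of 19, 9 were lower without overlap and 4 higher, with a median log2 ratio of -0.45. Scd1, the stearoyl-CoA desaturase, had a log2 ratio of -0.93 and Me1, which makes NADPH, one of -1.51, at 357 and 253 CPM against 918, 861 and 821 CPM. Fasn stood at 1840 and 3888 CPM against 7280, 7497 and 3066 CPM, and rep2 overlapped rep5. Genes chosen after their values were seen went the other way. Fads2, the delta-6 desaturase of polyunsaturated fatty acids, stood at 210 and 209 CPM against 25.3, 28.5 and 20.5 CPM, a log2 ratio of 3.08. Fads1 had a log2 ratio of 1.44, Elovl6 one of 1.55 and Agpat2 one of 0.86.

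The mitochondrial chromosome took 8.78% and 11.2% of the counts, against 17.77%, 15.96% and 13.23%. All 13 of its mRNAs were lower without overlap, with a median log2 ratio of -0.67. mt-Co1, a subunit of cytochrome c oxidase, stood at 27247 and 33181 CPM against 53929, 45597 and 40304 CPM. Nuclear genes of the same pathway moved less. Of 74 subunits of oxidative phosphorylation that entered, 17 were lower without overlap and 3 higher, with a median log2 ratio of -0.19. All 19 genes of the tricarboxylic acid cycle had a ratio below 1, with a median of -0.31, and 8 were lower without overlap. Of 17 thermogenic genes, 4 were lower and 3 higher, and Ucp1 stood at 2.80 and 1.27 CPM against 1.38, 2.01 and 2.09 CPM.

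**Figure D3:**
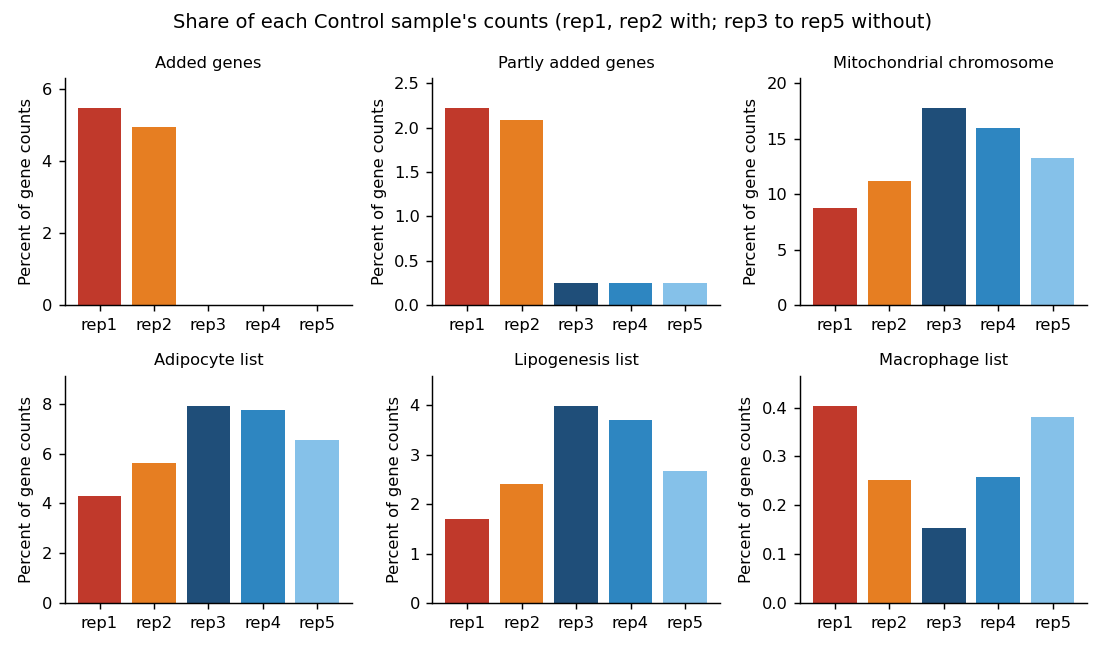
Percent of each sample's gene counts (y axes, from 0) taken by the added genes, the partly added genes, the mitochondrial chromosome and 3 gene lists, with 1 bar for each of rep1 to rep5. The adipocyte, lipogenesis and mitochondrial shares are lowest in rep1, and the macrophage share is highest in rep1 and rep5.

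Macrophage genes did not stand lower. Of 20, 18 had a ratio above 1, none were without overlap in either direction, and the median log2 ratio was 0.41 by total counts and 0.20 by TMM. Leaving out 1 sample at a time gave -0.02 without rep1, 0.78 without rep2 and 0.84 without rep5. The summed level followed no split by Gpx5, at 4037 and 2526 CPM against 1531, 2572 and 3804 CPM. Csf1r, the receptor for the growth factor of macrophages, stood at 263 and 173 CPM against 124, 221 and 258 CPM. Of 12 genes of lipid-associated macrophages 3 were higher without overlap, among them Cd9 and Cd63, a smaller share than the 35.7% of all genes that entered. Trem2, a lipid receptor of these cells, stood at 147 and 70.04 CPM against 30.3, 56.5 and 112 CPM. The 10 dendritic cell and class II genes had a median log2 ratio of -0.04 by total counts and -0.25 by TMM, and 1 was lower without overlap. The median was -0.29 without rep1, 0.21 without rep2 and 0.13 without rep5. Cd79a, a B cell receptor gene, stood at 1.73 and 0.749 CPM against 0.661, 0.376 and 0.915 CPM.

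Endothelial genes had a median log2 ratio of -0.25, with 4 of 12 lower without overlap, and the 17 progenitor and fibroblast genes one of -0.13, with 2 lower and 1 higher. The latter median was 0.21 without rep2 and 0.06 without rep5. All 16 cell cycle genes had a ratio above 1, with a median log2 ratio of 0.30, and none were without overlap. By TMM that median was 0.09, and the genes with the smallest ratios were below 1. Of 32 cytosolic ribosomal protein genes 14 were higher without overlap, with a median log2 ratio of 0.26 by total counts and 0.05 by TMM. The Ctnnb1 gene, the target of the knockout in the series, stood at 428 and 416 CPM against 295, 285 and 309 CPM, a log2 ratio of 0.51. Relative to the median of all genes, the list medians were -0.69 for adipocyte, -0.69 for lipogenesis, -0.91 for mitochondrially encoded mRNA and -0.42 for nuclear oxidative phosphorylation genes. They were -0.54 for tricarboxylic acid cycle, -0.48 for endothelial, -0.36 for progenitor and fibroblast and 0.18 for macrophage genes.

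**Figure D4:**
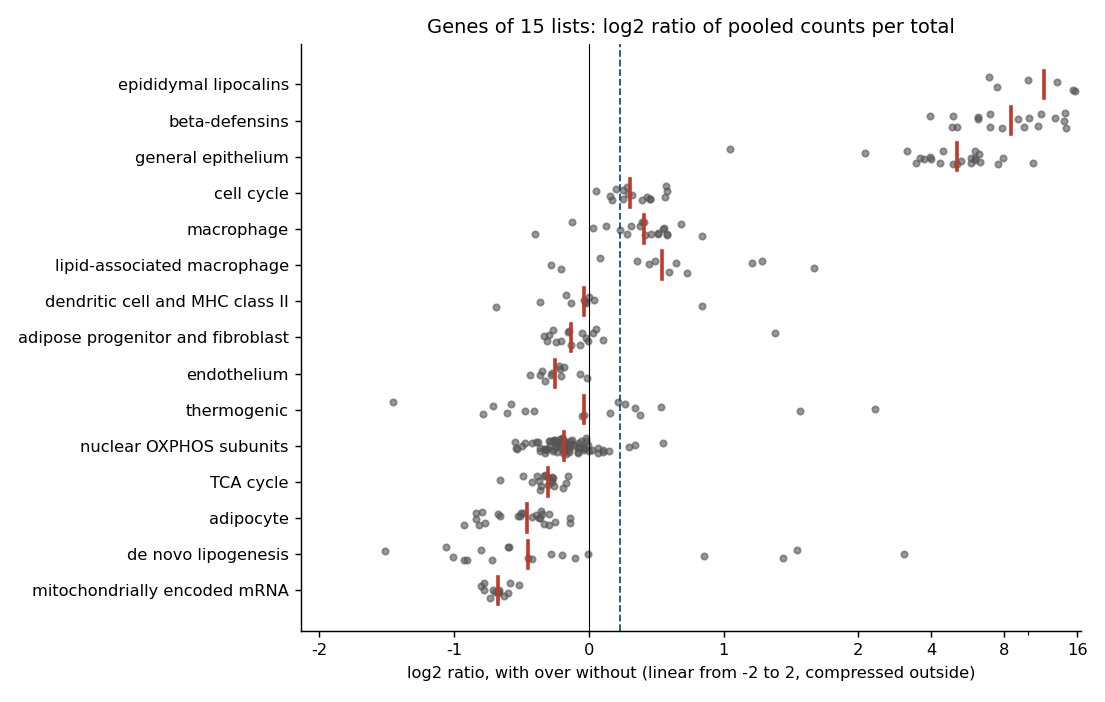
Log2 ratio (x axis, linear from -2 to 2 and compressed outside) of each gene that entered in 15 lists (y axis). Points are genes, red bars list medians, the solid line 0 and the dashed line the median of all genes, 0.23. The epididymal and epithelial lists lie far to the right, the mitochondrial, lipogenesis and adipocyte lists to the left.

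There were 131 genes (0.758%) that were 2-fold or more lower without overlap. Among those with a mean of at least 1 FPKM in the other set, the lowest ratios included Elane, with a log2 ratio of -3.66 on only 3 against 53 counts. Atxn7 and Eif4ebp3, also among the lowest, overlap Thoc7 and Maskbp3. Nek7, a kinase of the inflammasome and of mitosis, stood at 19.5 and 15.1 CPM against 90.2, 86.3 and 105 CPM, a log2 ratio of -2.44. Kpna1, a nuclear import receptor, stood at 10.5 and 12.3 CPM against 45.0, 57.7 and 60.2 CPM. Ptms stood at 223 and 231 CPM against 712, 610 and 619 CPM. Jam2, a junction protein, was low in rep1, rep2 and rep5, at 19.6, 16.5 and 19.9 CPM, and high in rep3 and rep4, at 103 and 87.3 CPM.

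Summed over genes, the added genes gained 5.20 percentage points of the counts, the partly added genes 1.90 and other genes higher without overlap 7.00. The mitochondrial chromosome lost the most of the groups named, 15.7% of the counts in the other set against 10.02%. The adipocyte list took 7.43% against 4.98% and the lipogenesis list 3.48% against 2.06%. All genes higher without overlap gained 14.1 points.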

How the data were processed

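RNA sequencing of epididymal white adipose tissue was used, in 5 Control samples, and 4 UBKO samples were left out. RNeasy extraction, an RNA integrity number above 7.0 and paired-end TruSeq RNA libraries are given per the labels' protocols. No source used here says whether strand was marked, so overlapping and antisense genes cannot be told apart. HISAT2, SAMtools 1.3.1, Cuffdiff and the build mm10 are credited to the submitters' processing notes. A read counter is likewise not given in the sources.

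The authors deposited 1 table with whole-number read counts and FPKM per gene. Of its gene IDs, 99.6% were found in GENCODE M21, 99.1% of those at the same coordinates. The deposited counts were scaled to CPM by the summed gene counts (Python 3.11.15, pandas 2.3.3, scipy 1.17.1). A gene whose counts over rep3 to rep5 summed to 0 was set to 3 counts over the set, and its ratio is a lower bound. The deposited FPKM values served for levels per length and the minimum of 1 FPKM.

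The split uses Gpx5 counts (above 1000, below 10), so no test was run. The members, the 35 gene lists and the motif were chosen with earlier results of these data known. Named genes were the markers, the 20 added, 10 partly added and 12 lower genes highest or lowest by rule, up to 4 of each list, and a fixed set of names, without predicted genes. Genes said to be chosen after their values were seen, and others of the lists named for contrast, are additions, and some members of the lists are not reported here. The rule that sorts genes into these classes was checked on simulated counts with known changes. Alternatives were TMM (edgeR 4.0.16), size factors (DESeq2 1.42.0), totals without added and mitochondrial genes, other filters, folds and floors, and each sample left out. Replicates were not duplicates, with a lowest chi-square per degree of freedom of 26.0.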

Additional observations from a re-analysis of the deposited data

Results flagged for a closer look

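Of 202 levels examined over the 5 Control samples, 4 had 1 sample far from the others. No chance rate is given, because many levels belong to genes picked for a gap between the sets and some levels overlap. Acta1, the skeletal muscle actin, stood at 84.5 CPM in Control rep3, against 15.3 to 29.5 CPM in the others, and made up most of the summed level of the skeletal muscle list in that sample, 91.0 CPM. Xbp1, a factor of secretory cells and plasma cells, stood at 214 CPM in Control rep5, against 69.98 to 84.5 CPM in the others. Rnase9, an epididymal RNase A family gene, stood at 2.20 CPM in Control rep1, against 0.634 CPM in rep2 and 0 in the other 3.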

How the results depend on the processing

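No source used here names a pairing of the samples, so no paired analysis was made. Alternatives fixed for this comparison were scaling, filter, fold, floor and leaving out each sample. Added after seeing the data were floors of 3 counts for all sums of 0 to 3, which left 305 added genes, and leaving out a sample with the genes that entered kept as over all 5. The number of added genes moved to 730 at an 8-fold threshold (6.43% of counts) and to 127 at a threshold 4 times the one used (4.49%). Under TMM the counts were 3955 genes higher and 3119 lower without overlap and 257 lower by 2-fold or more, and under size factors 3794, 3297 and 263. Median log2 ratios by TMM were 8.28 for beta-defensins, 9.26 for protease inhibitors, -0.67 for adipocyte, -0.25 for thermogenic, -0.40 for nuclear oxidative phosphorylation, -0.46 for endothelial and 0.022 for all genes. By size factors they were 8.26, 9.25, -0.68, -0.26, -0.41, -0.48 and 0.0051, with -0.90 for mitochondrially encoded mRNAs and -0.53 for the tricarboxylic acid cycle. With no filter there were 1382 partly added genes, 428 lower by 2-fold and 2226 lower without overlap, and medians of 5.09 for beta-defensins and 7.04 for protease inhibitors. With 50 counts in 2 samples these were 394 and 56 genes, with medians of 9.87 and 9.92, and -0.41 for thermogenic genes.

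Leaving out 1 sample in turn gave 55 to 326 added genes taking 1.38% to 5.87% of counts, 414 to 887 partly added, 124 to 359 lower by 2-fold, 6660 to 9453 higher and 1813 to 2830 lower without overlap. The lowest added counts, 55, come from leaving out rep1 or rep2 when a gene must still reach 10 counts in 2 samples; with the genes kept as over all 5 the range was 288 to 326. Medians ran from 4.39 to 5.20 for epithelial genes, -0.12 to 0.23 for thermogenic, -0.92 to -0.47 for mitochondrially encoded mRNAs, -0.53 to -0.12 for the tricarboxylic acid cycle, -0.35 to 0.21 for progenitor and fibroblast, -0.45 to -0.14 for endothelial, -0.02 to 0.84 for macrophage, -0.29 to 0.21 for dendritic cell and class II genes, 0.13 to 0.30 for all genes, 10.99 to 11.91 for lipocalins, 7.81 to 8.56 for beta-defensins and 7.75 to 9.42 for protease inhibitors. Of 2880 values of named genes under all these settings, 2471 moved by less than the spread between samples and none of the non-overlapping ones changed sign. With 2 samples against 3, the spread within each set is poorly known, and depth leaves genes under 10 counts undescribed.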
